A study of Mus musculus with 4 samples.

Results

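The 10 genes described here mark the contractile and perivascular cells of blood vessel walls in brown fat: the smooth muscle genes Acta2, Tagln, Cnn1, Myh11, Smtn and Myocd, and the pericyte genes Rgs5, Notch3, Cspg4 and Kcnj8. They were chosen by name, as general markers of these cells, with earlier results of these data known. Each was found on 1 row of every library, 10 of the 55287 gene symbols listed. RNA sequencing was performed on interscapular brown adipose tissue (BAT), the heat-producing fat depot between the shoulder blades, of 4 male C57BL/6 littermates at 15 weeks of age, with 1 library from each of 2 control (Sox4f/f) and 2 Sox4-MKO animals. All 4 mice carried the floxed Sox4 allele, and the Sox4-MKO mice also carried a Cre recombinase driven by Myf5, which is active in the lineage of brown adipocytes and skeletal muscle. The labels call the controls WT and name BAT adipocytes as the cell type, while the methods describe RNA from the tissue, so that fewer cells of a type and less RNA per cell cannot be told apart in any value below. Values are FPKM, fragments scaled to transcript length and to the mapped fragments of the library, and therefore allow levels of different genes to be compared per length.

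Smooth muscle cells ring the arteries and veins and tighten or widen them by sliding actin and myosin filaments. Many of their contractile genes are switched on together by serum response factor (SRF) with its coactivator myocardin, at short DNA elements called CArG boxes. Pericytes sit singly along capillaries under the same basement membrane as the endothelium, are recruited by endothelial PDGF-B and depend on Notch3 signalling. In brown fat the dense capillary bed that they cover carries fuel and oxygen in and heat out.

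Sox4, the deleted transcription factor gene, had 1.98 and 1.06 FPKM in the control libraries, and 0.98 and 3.06 in the libraries labelled Sox4-MKO. Sox4-MKO mouse 1 was thus just under Sox4f/f mouse 2 and further under Sox4f/f mouse 1. Sox4-MKO mouse 2 was above both controls, against its label, and each direction below rests on the labels. The libraries held an estimated 12200000 to 16300000 fragments. Skeletal muscle fibre markers differed widely between them: the sum over 15 such genes was 238 and 855 FPKM in the controls and 16163 and 3337 in the Sox4-MKO-labelled libraries. Of 12877 genes tested by limma on log2(FPKM + 1), 1024 were higher and 1066 lower under the Sox4-MKO label (unadjusted p under 0.05), and 1322 and 746 once the libraries were scaled to equal sums that leave out Ucp1 and the mitochondrially encoded genes. After Benjamini-Hochberg adjustment 0 passed, and the lowest adjusted p was 0.191.

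Most of the smooth muscle and pericyte genes did not differ between the genotypes by more than the libraries of one genotype differed from each other. Of the 9 members that passed the filter of a mean FPKM above 1 in at least one genotype, 1 (Cspg4) was called higher at an unadjusted p under 0.05, where 7.95% of all genes tested were called higher, and 0 were called lower, against 8.28% of all genes. With adjustment over all genes 0 members were called, and percent called over all genes was 0. The 4 libraries fell apart by genotype for 3 members (Notch3, Cspg4 and Kcnj8) and overlapped for the other 6, whereas the genotypes did not overlap for 51.3% of all genes tested. The median log2 fold change of the 9 members was -0.10, beside -0.05 over all genes tested. Myocd, the tenth, was below the filter and was not tested.

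**Figure D1:**
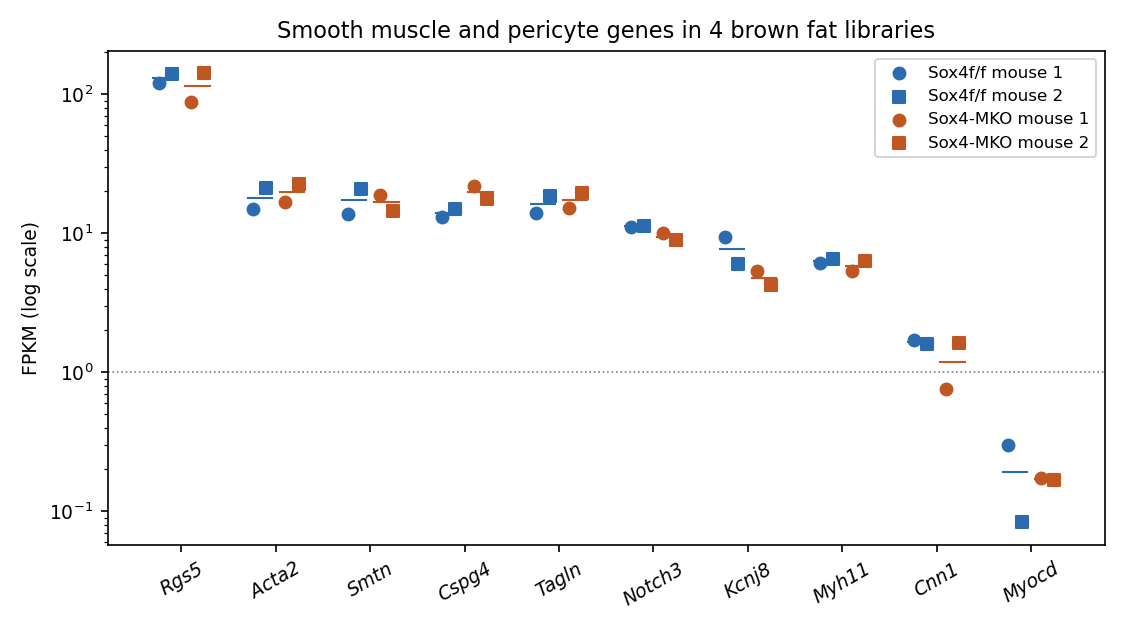
FPKM of the 10 smooth muscle and pericyte genes in each of the 4 libraries, on a log axis, with 1 point per mouse, colours for the genotypes, short lines at the genotype means and a dotted line at 1 FPKM. Rgs5 stands highest at 88.2 to 142 FPKM and Myocd lowest at 0.083 to 0.299, and the points of the genotypes separate for Notch3, Cspg4 and Kcnj8 among the genes tested.

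Part of the order of the levels was shared by the 4 libraries. Within every library Rgs5 was highest, at ranks 488 to 810 among all rows. Acta2, Tagln, Smtn and Cspg4 followed between 13.1 and 22.5 FPKM, with ranges that overlap. Acta2 was above Tagln in each library, while Cspg4 was the lowest of the 4 in both controls and the highest in Sox4-MKO mouse 1, and Smtn was the lowest in Sox4-MKO mouse 2. Notch3 came next, at 8.92 to 11.3 FPKM, then Kcnj8 and Myh11 in either order, then Cnn1 and, far lower, Myocd.

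Promoter sequence is shown for the best known SRF target among the members (Acta2) and for the pericyte genes with the largest fold changes (Cspg4 and Kcnj8). Each run is the 250 bases before the RefSeq start on GRCm38.p6, read 5′ to 3′ on the strand of the gene. The run of Acta2 lies at chr19:34255374-34255623 on the minus strand, that of Cspg4 at chr9:56864854-56865103 on the plus strand and that of Kcnj8 at chr6:142571615-142571864 on the minus strand. The runs of Acta2 and Cspg4 reach into the gene spans given below, which are from GENCODE and start elsewhere. Distances to the start are counted from the RefSeq start. Capitals mark CArG boxes with 1 G or C in the core in Acta2 and GGGCGG on the opposite strand in Cspg4, and no searched motif was found in Kcnj8.
Acta2: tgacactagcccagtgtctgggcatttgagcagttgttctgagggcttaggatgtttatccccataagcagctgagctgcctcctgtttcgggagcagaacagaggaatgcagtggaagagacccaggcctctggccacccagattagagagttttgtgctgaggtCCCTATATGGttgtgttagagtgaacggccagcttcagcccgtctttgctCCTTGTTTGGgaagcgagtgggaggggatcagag
Cspg4: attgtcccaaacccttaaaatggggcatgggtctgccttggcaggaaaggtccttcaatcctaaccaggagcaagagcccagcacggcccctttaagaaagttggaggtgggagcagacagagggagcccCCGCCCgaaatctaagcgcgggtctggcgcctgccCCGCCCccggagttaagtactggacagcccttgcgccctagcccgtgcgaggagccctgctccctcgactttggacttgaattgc
Kcnj8: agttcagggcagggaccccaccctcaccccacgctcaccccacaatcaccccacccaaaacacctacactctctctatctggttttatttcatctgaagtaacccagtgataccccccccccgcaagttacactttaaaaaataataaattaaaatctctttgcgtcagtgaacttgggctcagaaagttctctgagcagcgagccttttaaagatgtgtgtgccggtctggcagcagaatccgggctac

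RefSeq windows were matched for 7 members: Acta2, Cnn1, Smtn, Rgs5, Notch3, Cspg4 and Kcnj8. Both strands were searched for the CArG box, for the same box with at most 1 G or C in its core, for TGGGAA, the core of the site bound by the Notch effector RBPJ, for ACAAAG, a SOX-type site, and for GGGCGG, bound by SP factors. No member window held a perfect CArG box, which 1.47% of 32851 windows of the same length held. The relaxed form was in Acta2 alone among the 7, beginning 84 and 34 bases before the start, and in 8.59% of all windows. TGGGAA was found 27 bases before the start of Acta2, where it overlaps the second CArG-like element, and 68 bases before that of Smtn, and 21.6% of all windows held it. ACAAAG was in 0 of the 7, against 16.5% of all windows. GGGCGG was in Smtn, Notch3 and Cspg4, against 32.7% of all windows. GC content was 53.6% in the Acta2 window, 60.4% in Cspg4 and 49.2% in Kcnj8, beside a median of 52.4% over all windows.

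Acta2 (GRCm38 chr19:34241090-34255590, minus strand) encodes smooth muscle α-actin, the thin filament protein most used to mark these cells. It was listed at 14.9 and 21.2 FPKM in the controls and at 16.9 and 22.5 in the Sox4-MKO-labelled libraries. In both genotypes mouse 2 was the higher, and the genotypes overlapped. The means were 18.1 ± 4.49 and 19.7 ± 3.94 FPKM (SD, n = 2 each), a log2 difference of 0.12 (SE 0.24, 95% interval -0.50 to 0.75, limma adjusted p = 0.815). The sign turned to -0.12 without Sox4f/f mouse 1 and to -0.07 without Sox4-MKO mouse 2.

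Tagln (chr9:45929619-45936058, minus strand) encodes transgelin, also called SM22α, an actin-binding protein of smooth muscle. It followed Acta2 closely, at 14.0 and 18.5 FPKM in the controls and 15.3 and 19.5 in the Sox4-MKO-labelled libraries (log2 difference 0.10, SE 0.21, limma adjusted p = 0.833). Across the 4 libraries the ratio of Acta2 to Tagln was 1.07, 1.15, 1.11 and 1.15, so that the highest ratio was 1.08 times the lowest. Likeness was measured over 4 libraries as the SD of the log2 ratio of a pair of genes. This SD was 0.053 for Acta2 and Tagln, the lowest of the 45 pairs of members, whose median was 0.47, and 1.01 for the widest pair, Smtn and Myocd. Among the other genes of the lists, those most like Acta2 by the same measure were Myl9, Meis2, Gucy1a1 and Mylk, with SDs of 0.053, 0.055, 0.15 and 0.16. Next came Adgre1, a macrophage marker, and Pecam1, an endothelial marker, at 0.231 and 0.232, level with the member Myh11 at 0.232. Rgs5, Smtn and Cnn1 were at 0.26, 0.34 and 0.55, and genes outside the lists were not measured. Myl9, the regulatory myosin light chain of smooth muscle, was at 16.3, 21.9, 19.0 and 24.0 FPKM, and Mylk, the kinase that phosphorylates it to start contraction, at 9.69, 12.7, 9.56 and 11.3, with genotypes overlapping in both. With 4 libraries these ratios are a description. Pcsk7 and Gm48529 overlap Tagln on the opposite strand, and whether counting used strand is not given in the sources used here.

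Myh11 (chr16:14194535-14291372, minus strand) encodes the smooth muscle myosin heavy chain, the motor of the thick filament and the member most restricted to mature smooth muscle. It was at 6.11 and 6.53 FPKM in the controls and at 5.38 and 6.34 in the Sox4-MKO-labelled libraries. The log2 difference was -0.10 (SE 0.16, 95% interval -0.53 to 0.33, limma adjusted p = 0.789), with overlap between the genotypes. Smtn (chr11:3517523-3540612, minus strand) encodes smoothelin, which binds actin stress fibres in contractile cells. Its values were 13.8 and 20.8 in the controls and 18.9 and 14.5 in the Sox4-MKO-labelled libraries, a spread within each genotype wider than the log2 difference of -0.04 (SE 0.25, limma adjusted p = 0.954). Smtn was the 1 member whose sign turned under a scaling, to 0.03 with the equal sums that leave out Ucp1 and the mitochondrially encoded genes. Gm11946 and Gm11947 overlap Smtn on the opposite strand.

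Cnn1 (chr9:22099216-22109630, plus strand) encodes calponin 1, a brake on actomyosin in smooth muscle. It was low, at 1.70 and 1.60 FPKM in the controls and 0.76 and 1.63 in the Sox4-MKO-labelled libraries, which correspond to about 23 to 63 fragments if its longest annotated transcript is taken and 4 to 10 if its shortest is. Only the library of Sox4-MKO mouse 1 stood apart. The log2 difference was -0.30 (SE 0.28, limma adjusted p = 0.622) with all libraries, -0.59 when Sox4-MKO mouse 2 was left out and -0.01 when mouse 1 of that genotype was.

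Myocd (chr11:65176561-65269989, minus strand) encodes myocardin, the coactivator that gives SRF its smooth muscle targets. It was listed at 0.299 and 0.083 FPKM in the controls and at 0.174 and 0.167 in the Sox4-MKO-labelled libraries. For the longest annotated transcript these values come from an estimated 21, 5, 11 and 14 fragments, for the shortest from 1 to 3, and the 95% Poisson intervals for the longest, 0.188 to 0.464 and 0.026 to 0.188 in the controls and 0.085 to 0.306 and 0.092 to 0.282 in the others, cover counting error only. The genotypes overlapped, and a difference between them was not tested at this low level. Its partner Srf was at 15.2 and 22.2 FPKM in the controls and 16.4 and 11.4 in the Sox4-MKO-labelled libraries (log2 difference -0.40, limma adjusted p = 0.491). The related coactivators Mrtfa and Mrtfb, which join SRF in the nucleus when released from actin, were at 7.52, 8.40, 7.83 and 4.14 FPKM and at 5.88, 6.002, 8.04 and 6.03. Of the list of 15 regulators of smooth muscle transcription, 11 were tested, 4 were called higher and 0 lower at an unadjusted p under 0.05 (7.95% and 8.28% over all genes tested), with a median log2 difference of 0.17. The 4 were Mef2c, Prrx1, Fhl2 and Gata6. Mef2c, a factor that skeletal and cardiac muscle also use, went from 5.02 and 6.77 FPKM in Sox4f/f to 33.3 and 16.6, and Prrx1, a factor of mesenchymal cells, from 3.62 and 5.08 to 13.5 and 10.1.

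Rgs5 (chr1:169655501-169695813, plus strand) encodes a regulator that shortens G protein signalling and is abundant in pericytes. It was at 121 and 141 FPKM in the controls and at 88.2 and 142 in the Sox4-MKO-labelled libraries. The lowest value was that of Sox4-MKO mouse 1, while Sox4-MKO mouse 2 matched the higher control. The means were 131 ± 13.9 and 115 ± 37.9 FPKM (SD, n = 2 each), and the log2 difference was -0.22 (SE 0.26, 95% interval -0.90 to 0.46, limma adjusted p = 0.690). It became -0.56 without Sox4-MKO mouse 2 (unadjusted p = 0.0287, adjusted p = 0.234) and 0.12 without Sox4-MKO mouse 1. Rgs5 made up 70.3% to 82.1% of the summed FPKM of the pericyte members, so that this sum follows Rgs5. Of 8 other genes of its R4 family, 3 were tested and 0 were called, beside 7.95% higher and 8.28% lower over all genes tested. Rgs4, also of this family, is counted with the other pericyte genes below.

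Cspg4 (chr9:56865033-56899870, plus strand) encodes the proteoglycan NG2 on the surface of pericytes and of some progenitor cells. It was at 13.1 and 15.0 FPKM in the controls and at 21.9 and 17.7 in the Sox4-MKO-labelled libraries. Both libraries labelled Sox4-MKO lay above both controls. Acta1, skeletal α-actin, ranked the libraries in the same order, at 59.9 and 226 FPKM in the controls and 4512 and 898 in the others. Whether skeletal muscle RNA bears on Cspg4 was not tested. The means were 14.0 ± 1.31 and 19.8 ± 3.02 FPKM (SD, n = 2 each), a ratio of 1.41 and a log2 difference of 0.46 (SE 0.17, 95% interval 0.022 to 0.90, limma unadjusted p = 0.0430, adjusted p = 0.292). The sign was the same in all 13 alternatives, the unadjusted p was under 0.05 in 7 of them, and the adjusted p ranged from 0.226 to 0.718. The call was lost without Sox4f/f mouse 1 (log2 difference 0.37), without Sox4f/f mouse 2 (0.55) and without Sox4-MKO mouse 1 (0.31). It was kept without Sox4-MKO mouse 2 (0.61, unadjusted p = 0.0330).

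Kcnj8 (chr6:142564837-142571614, minus strand) encodes Kir6.1, the pore of the ATP-sensitive potassium channel of vascular mural cells. It was at 9.47 and 5.98 FPKM in the controls and at 5.35 and 4.23 in the Sox4-MKO-labelled libraries. Both controls lay above both libraries labelled Sox4-MKO, but Sox4f/f mouse 2 was close to them. The means were 7.72 ± 2.47 and 4.79 ± 0.80 FPKM (SD, n = 2 each), a ratio of 0.62, and the log2 difference was -0.57 (SE 0.26, 95% interval -1.25 to 0.12, limma unadjusted p = 0.0845, adjusted p = 0.362), which did not pass. It was -0.28 without Sox4f/f mouse 1 and -0.86 without Sox4f/f mouse 2 (unadjusted p = 0.0418). Abcc9, which encodes the SUR2 subunit that joins Kir6.1 in the channel, was at 10.5 and 7.77 FPKM in the controls and at 14.0 and 10.2 in the Sox4-MKO-labelled libraries (log2 difference 0.37, limma adjusted p = 0.476). The ratio of Abcc9 to Kcnj8, computed after the values were seen, was 1.11 and 1.30 in the controls and 2.62 and 2.41 in the others.

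**Figure D2:**
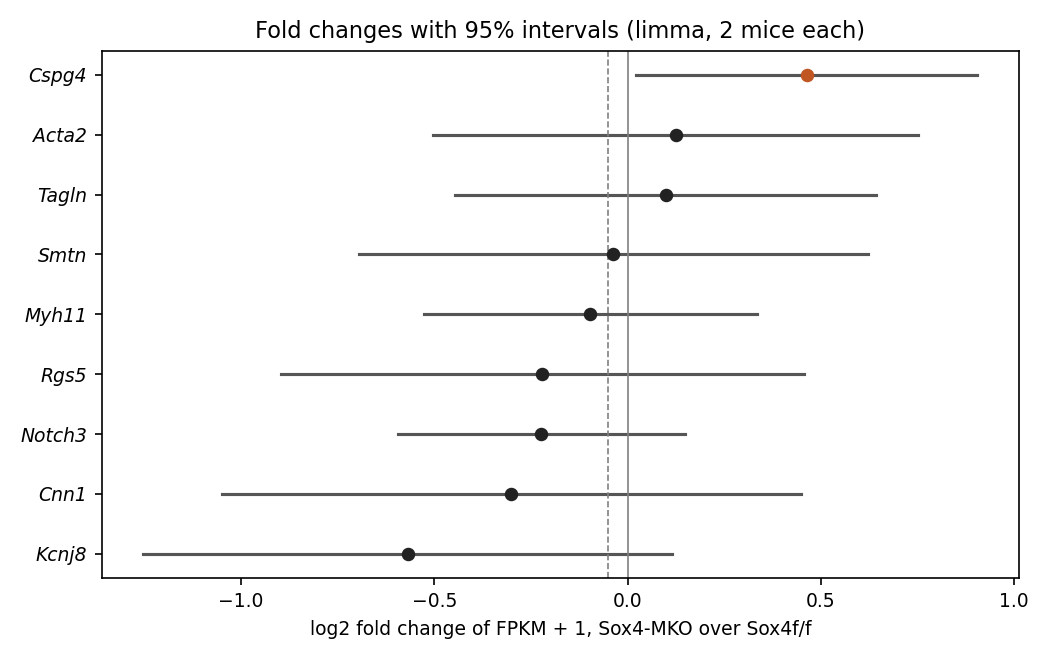
Log2 difference on the log2(FPKM + 1) scale (labelled Sox4-MKO minus Sox4f/f) of the 9 members tested, with the 95% interval from limma as bars, an orange point for an unadjusted p under 0.05 and a dashed line at the median of all genes tested. The interval of Cspg4, from 0.022 to 0.90, leaves out 0, while those of the other 8 members include it.

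Notch3 (chr17:32120820-32166852, minus strand) encodes the Notch receptor of arterial smooth muscle and pericytes. It was at 11.1 and 11.3 FPKM in the controls and at 9.998 and 8.92 in the Sox4-MKO-labelled libraries. The genotypes did not overlap, but the difference was small, with a log2 difference of -0.22 (SE 0.14, 95% interval -0.60 to 0.15, limma adjusted p = 0.478). Gm17276 overlaps Notch3 on the opposite strand. Among the ligands, Dll4, an endothelial one, was at 11.5 and 6.57 FPKM in the controls and at 5.46 and 3.68 in the Sox4-MKO-labelled libraries (log2 difference -0.82, limma unadjusted p = 0.0528, adjusted p = 0.313), and Jag1 was at 9.83, 5.81, 9.69 and 6.84 with overlap. Heyl, a target gene of Notch3 in mural cells, was lower at an unadjusted p of 0.0336 by limma, at 5.65 and 7.26 FPKM in the controls and 3.83 and 4.22 in the others (adjusted p = 0.269). It passed in 5 of 13 alternatives and in none of the 4 that leave out a library, with a log2 difference of -0.41 to -0.72. Of the 17 Notch ligands, other receptors and targets tested, 2 were called higher (Mfng and Rbpj) and 2 lower (Heyl and Notch1), counts near the 7.95% and 8.28% over all genes tested. The genotypes did not overlap for 16, against 51.3% of all genes. The median log2 difference of this list was -0.33, beside -0.05 over all genes tested. The number called lower was 6 with the replicate block and 0 to 2 when a library was left out, and the number called higher was then 0 to 1. Notch1, the receptor with wide use in endothelium, was at 10.4 and 10.5 FPKM in the controls and 7.20 and 6.98 in the others, and its call was likewise lost whichever library was left out (log2 difference -0.48 to -0.52).

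The PDGF axis that attracts pericytes was read through 3 genes. Pdgfb, the ligand made by endothelium, was called lower, at 25.1 and 27.6 FPKM in the controls and 13.2 and 17.1 in the Sox4-MKO-labelled libraries (log2 difference -0.76, SE 0.17, limma unadjusted p = 0.00801, adjusted p = 0.214), and the call was lost without Sox4f/f mouse 2 (-0.70). Pdgfrb, its receptor on pericytes, was at 8.99 and 7.66 FPKM in the controls and 7.91 and 8.96 in the others (log2 difference 0.02, SE 0.16, limma adjusted p = 0.966). Pdgfra, the receptor typical of fibroblasts, was called higher, at 4.22 and 5.07 against 7.17 and 8.44, and the call was lost without Sox4f/f mouse 1 (log2 difference 0.53) or Sox4-MKO mouse 2 (0.54). Of the 6 PDGF and potassium channel genes tested among 7, these were the 1 called lower and the 1 called higher, beside 8.28% and 7.95% over all genes tested.

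Of the 22 other pericyte genes, 18 were tested, 3 were called higher and 0 lower (7.95% and 8.28% over all genes tested), with a median log2 difference of 0.05. Steap4, a metalloreductase, was at 77.9 and 60.7 FPKM in the controls and 115 and 107 in the Sox4-MKO-labelled libraries. Vtn, the matrix protein vitronectin, was at 4.62 and 4.42 against 7.38 and 6.50, and Cd248, endosialin of pericytes and fibroblasts, at 5.15 and 6.11 against 15.1 and 11.2. The call of Vtn was lost without Sox4f/f mouse 1 (log2 difference 0.55), Sox4f/f mouse 2 (0.50) or Sox4-MKO mouse 1 (0.44). Others of the list had values on the other side without passing the test. Cox4i2, a respiratory chain subunit, was at 4.75 and 4.79 FPKM in the controls and 3.45 and 3.45 in the others, and Ndufa4l2 at 11.5 and 14.2 against 7.996 and 11.0, both without overlap, and the log2 differences of Higd1b and Rgs4 were -0.36 and -0.40 with overlap. Beside these, 6 of 8 fibroblast markers were called higher, and their sum was 343 and 382 FPKM in the controls and 794 and 736 in the others, and whether it bears on these 3 genes was not tested. The sum of the 4 pericyte members was 155 and 173 FPKM in the controls and 126 and 173 in the Sox4-MKO-labelled libraries.

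Endothelial cells, which line the vessels that mural cells cover, gave lower sums in the Sox4-MKO-labelled libraries: 423 and 504 FPKM in Sox4f/f against 296 and 369 over 12 markers, of which 0 were called higher and 2 lower (Egfl7 and Tie1), where 8.28% of all genes tested were lower. The number lower was 1 without Sox4f/f mouse 1, which lost Tie1, and 4 without Sox4-MKO mouse 2 or with the replicate block. The call of Tie1 was also lost without Sox4f/f mouse 2 (log2 difference -0.50). Pecam1 and Cdh5 were not called, at 35.6, 41.6, 33.6 and 36.3 FPKM and at 43.8, 59.8, 32.7 and 51.7. Emcn and Vwf had log2 differences on the other side, 0.30 and 0.17, with overlap, while those of the other 10 were negative. The genotypes did not overlap for 6 of the 12 markers, against 51.3% of all genes tested. Egfl7 was the largest part of the sum, at 124 and 124 FPKM in the controls and 78.5 and 72.7 in the others. Per summed endothelial FPKM, the 5 contractile members (Acta2, Tagln, Cnn1, Myh11 and Smtn) came to 12.0% and 13.6% in the controls and 19.3% and 17.5% in the others. The 4 pericyte members came to 36.6% and 34.4% in the controls and 42.5% and 46.7% in the others. Both shares separated the genotypes, while the contractile and pericyte sums themselves did not. The contractile sum was 50.5 and 68.7 FPKM in the controls and 57.2 and 64.5 in the others. The pericyte sum was 155 and 173 FPKM in the controls and 126 and 173 in the others. The shares were formed after the values were seen and carry no test.

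The list of 25 other smooth muscle contractile and cytoskeletal genes gave a different count from the members. Of 22 tested, 7 were called higher and 0 lower at an unadjusted p under 0.05 (Tpm1, Tpm2, Des, Synpo2, Pdlim3, Ppp1r12b and Nexn), with a median log2 difference of 0.26. Over all genes tested, 7.95% were called higher and 8.28% lower. Skeletal muscle fibres also express these 7 genes. Tpm2, a tropomyosin, was at 18.9 and 68.3 FPKM in the controls and at 912 and 221 in the Sox4-MKO-labelled libraries, in the same order of libraries as Acta1, skeletal α-actin, at 59.9, 226, 4512 and 898. Desmin (Des), the intermediate filament of muscle cells, was at 29.0, 36.8, 231 and 78.8. Synpo2, an actin-bundling protein, was at 1.99, 3.07, 33.6 and 9.36. Of 15 skeletal muscle markers 13 were called higher, 5 without Sox4f/f mouse 1 and 3 without moderation of the variances, and their part in these 7 genes was not tested. The count of 7 became 0 without Sox4f/f mouse 1, 3 without Sox4f/f mouse 2 and 10 without Sox4-MKO mouse 2. Without moderation of the variances, 0 of the 22 were called higher and 1 lower. Actg2, the γ-actin of visceral smooth muscle, was at 0.517, 0.847, 0.325 and 1.42 FPKM, with no test because of its low level.

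**Figure D3:**
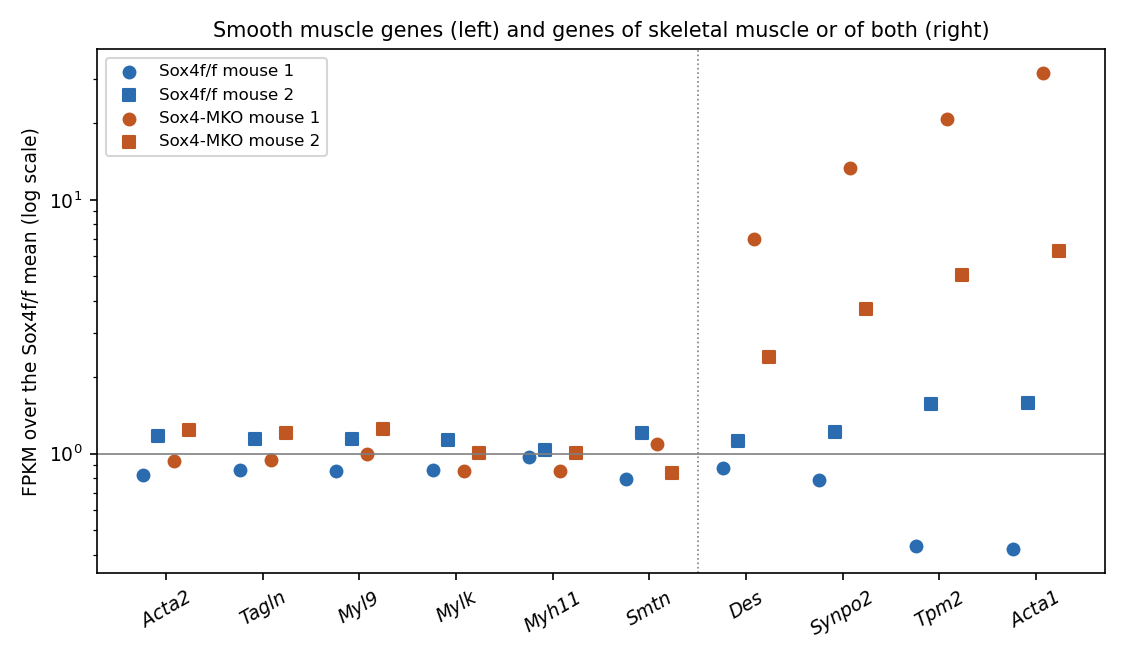
FPKM in each library divided by the mean of the Sox4f/f libraries, on a log axis, for smooth muscle genes (left of the dotted line) and for genes that skeletal muscle expresses (right). Acta2, Tagln, Myl9, Mylk, Myh11 and Smtn stay near 1 in the 4 libraries, while Des, Synpo2, Tpm2 and Acta1 lie above 1 in both libraries labelled Sox4-MKO.

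The ratio of Acta1 to Acta2 was 4.02 and 10.6 in the controls and 267 and 40.0 in the Sox4-MKO-labelled libraries. Skeletal Myh4, the fast fibre myosin, was at 15.0, 56.5, 1165 and 55.2 FPKM, whereas Myh11 stayed between 5.38 and 6.53. Of 6 cardiac muscle markers, 4 were listed at 0 in at least 1 library (Myh6, Myl7, Nppa and Tnnt2), and Myl4, the 1 that was tested, was not called, at 2.16, 3.20, 3.56 and 5.93 FPKM. Macrophage markers summed to 31.3 and 49.1 FPKM in the controls and 75.3 and 68.7 in the others, with 4 of 6 called higher, 1 without Sox4f/f mouse 1 and 2 without either library of the other genotype. Schwann cell markers gave 0 calls among 4 tested, and 6 of 10 adipocyte markers were called lower, 2 without either control and 4 without Sox4-MKO mouse 2. Over all genes tested, 7.95% were called higher and 8.28% lower. Among the 6 were Ucp1, at 1935 and 1814 FPKM in the controls and 733 and 1105 in the others, Cidea, at 1742 and 1849 against 989 and 984, and Ebf2, at 24.4 and 25.6 against 17.1 and 17.8. The rest of the 6 were Cox8b, Ppargc1a and Lipe. This list joins brown fat genes with general adipocyte genes. Of the latter, Lipe was called lower, at 586 and 593 FPKM in the controls and 494 and 459 in the others. Adipoq was not called, at 989 and 821 FPKM in the controls and 711 and 1123 in the others. All 10 log2 differences of the list were negative, with a median of -0.41. Plin1, Pparg and the brown fat gene Prdm16 were not called either.

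**Figure D4:**
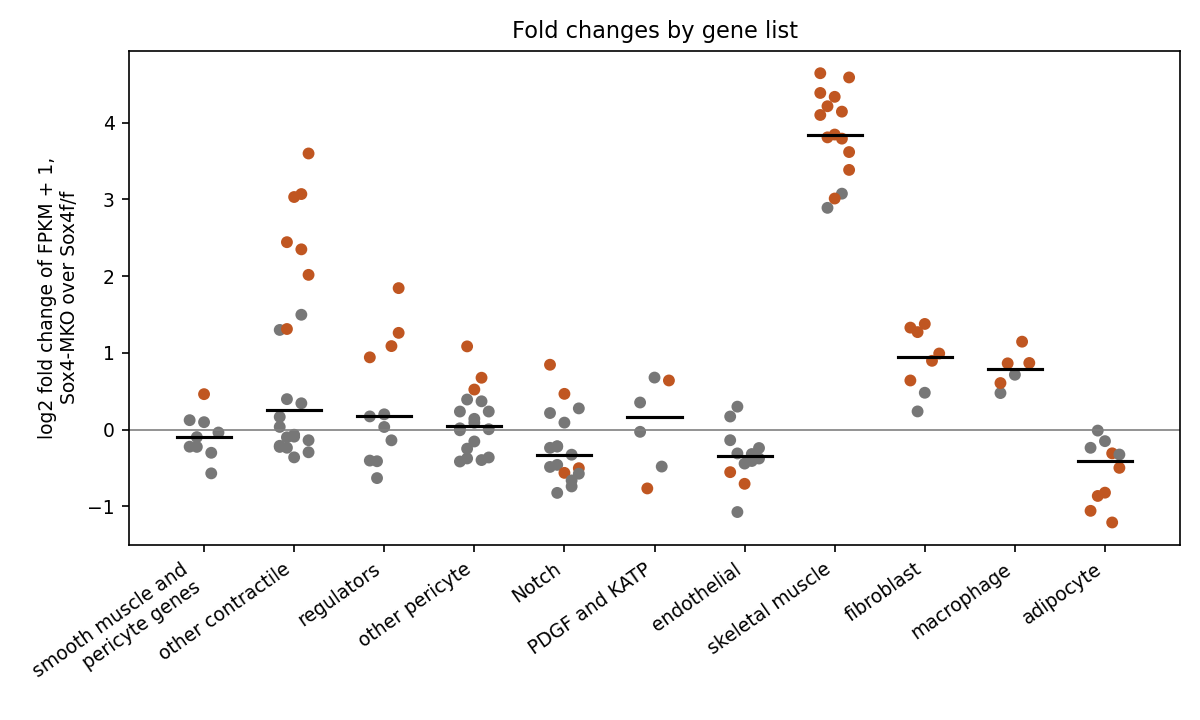
Log2 difference on the log2(FPKM + 1) scale (labelled Sox4-MKO minus Sox4f/f) of each gene tested, by list, with the median of each list as a bar and orange points for an unadjusted p under 0.05. The smooth muscle and pericyte genes centre on -0.10, the other contractile genes on 0.26 and the skeletal muscle markers on 3.84.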

How the data were processed

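The authors deposited 1 FPKM value per gene and library, made with Cufflinks 2.1.1 and Cuffdiff on mm10 per the submitters' processing notes. The aligner, annotation and use of strand are not given in the sources used here. The methods describe TRIzol extraction and the labels a column kit, both followed by polyadenylated RNA libraries. Genes whose mean FPKM exceeded 1 in either genotype were fitted as log2(FPKM + 1) with limma 3.58.1 in R 4.3.3 (genotype only, trended prior, two-sided, Benjamini-Hochberg over 12877 genes). A fold change on this scale understates that of low genes. With 2 mice per genotype an exact permutation test of 1 gene cannot go below p = 0.333. Fragments were estimated from the smallest steps of the FPKM values of 6741 genes with 1 transcript of at least 1500 nt. Coordinates are those of GENCODE M21 for the same symbol, and promoter windows those of RefSeq. Members and lists were chosen with earlier results of these data known. Genes named are the members, Sox4, direct partners of members, and up to 4 genes per list with the largest change among those called whose genotypes did not overlap, fewer where a list bears little on the members. Meis2, Gucy1a1 and Adgre1 were named for their likeness to Acta2, after their values were seen. Beyond these, Tpm1, Ppp1r12b, Cox4i2, Ndufa4l2, Higd1b, Rgs4, Emcn, Vwf, Ebf2, Lipe, Adipoq, Plin1, Pparg, Prdm16 and the cardiac markers were also named after their values were seen. Settings also tried were each library left out, a block for the replicate number, 3 scalings, 2 filters, a pseudocount of 0.1, and limma without moderation or trend. The code was tested on simulated data, and figures were drawn with matplotlib 3.10.9.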

Additional observations from a re-analysis of the deposited data

How the results depend on the processing

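Of 116 member values over 13 alternatives, 96 kept their direction and their side of the unadjusted threshold, 6 lost a call, 5 gained one and 9 changed direction, and 0 members passed the adjusted threshold under any of them. Over all genes tested, the deviations of same-numbered libraries were not correlated (-0.012). A single correlation over genes cannot exclude a pairing that touches only part of them. With the replicate block 1908 genes were called, with 0 members higher and 1 lower (Kcnj8, limma unadjusted p = 0.0372), and the limma p of Cspg4 was 0.0696. Quantile normalization gave 1 member lower (Kcnj8), and leaving out the moderation or the trend gave 0 higher. Without 1 library at a time, 813 to 2258 genes were called, 0 to 1 members higher and 0 to 2 lower, and the members' median was -0.24 to 0.0050. The log2 difference then ran from -0.12 to 0.37 for Acta2, -0.091 to 0.29 for Tagln, -0.32 to 0.24 for Smtn, -0.20 to 0.0050 for Myh11, -0.56 to 0.12 for Rgs5, -0.037 to 0.37 for Myl9, -0.24 to 0.43 for Jag1, -0.085 to 0.12 for Pdgfrb, -0.27 to 0.090 for Mylk, -0.63 to 0.013 for Cdh5 and -0.32 to 0.71 for Sox4. Smtn was at 0.031 with the common sum, and Pdgfrb at -0.0015 with a common median and -0.0045 with quantile normalization. The cause of these changes was not tested. Calls higher and lower over all genes were 553 and 935 without moderation. Depth limits Myocd and Cnn1 most.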
